A study of Mus musculus with 32 samples.

Results

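Rosoxacin, a quinolone antibacterial, was compared with dexamethasone, a synthetic glucocorticoid, in whole lungs of mice that had been given World Trade Center particulate matter (WTCPM), dust gathered at Ground Zero. The question the comparison answers is where lungs given one drug on top of the dust differ from lungs given the other. All 8 mice compared were male wild-type C57BL/6J animals of 6 to 8 weeks that had received the dust. In 4 of them rosoxacin was added at 5 mg/kg, and in the other 4 dexamethasone at 0.1 mg/kg. Dust alone (WTCPM) and neither dust nor drug (control) made up the remaining groups of 4, so the design holds 16 mice. The doses differ and each drug was given at 1 dose, so drug and dose cannot be told apart. The route and timing of dust and drugs and the amount of dust are not stated in the sources used here.

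Each gene's level is an FPKM value (fragments for each kilobase of a transcript and each 1e+06 mapped fragments), averaged over the 2 lanes of a mouse. Genes were chosen as features with an Ensembl mouse identifier of their own and at least 0.1 FPKM on average in the 16 mice. That left 2749 of 26305 annotated genes, in a table of 54640 features. The other 28335 features are assembled loci without gene names. They hold nearly all of the signal, since annotated genes together carry 0.1135% of all FPKM and the highest mean of any of them is 4.05 FPKM. Most abundant lung genes are therefore not among the genes described. None of 25 alveolar epithelial markers, among them surfactant protein genes, has a value under its own identifier, so the labelled tissue was not checked against its defining markers. In whole lung, fewer cells of a type and less RNA per cell cannot be told apart.

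Dexamethasone acts through the glucocorticoid receptor, a transcription factor that enters the nucleus when hormone binds, activates genes through paired half-sites in DNA and dampens inflammatory transcription. In lung tissue it is known for lowering cytokine and chemokine expression and for depleting lymphocytes and eosinophils. Quinolones act on bacterial DNA gyrase and topoisomerase IV and have no dedicated receptor in mammals.

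Promoters of 3 genes on which the comparison turns are shown, since these genes differed between the drugs under each of the 2 scalings used below. They were copied from RefSeq on GRCm38.p6 and run from 250 bases before to 50 bases after the annotated start. Eprn and Phgr1 were higher with dexamethasone and Hipk4 was higher with rosoxacin. Capitals mark a glucocorticoid receptor half-site, AGAACA or its other-strand form TGTTCT.
Eprn: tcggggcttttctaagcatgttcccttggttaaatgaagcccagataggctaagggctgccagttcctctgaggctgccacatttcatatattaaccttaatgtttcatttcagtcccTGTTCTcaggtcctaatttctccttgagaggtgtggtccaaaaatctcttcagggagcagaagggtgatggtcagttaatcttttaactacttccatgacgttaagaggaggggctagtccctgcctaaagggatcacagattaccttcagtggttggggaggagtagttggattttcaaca
Phgr1: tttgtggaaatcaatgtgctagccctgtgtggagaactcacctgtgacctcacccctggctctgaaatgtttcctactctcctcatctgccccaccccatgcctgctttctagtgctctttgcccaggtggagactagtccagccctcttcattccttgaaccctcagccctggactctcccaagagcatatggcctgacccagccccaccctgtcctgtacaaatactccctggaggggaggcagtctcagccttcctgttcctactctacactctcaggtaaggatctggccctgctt
Hipk4: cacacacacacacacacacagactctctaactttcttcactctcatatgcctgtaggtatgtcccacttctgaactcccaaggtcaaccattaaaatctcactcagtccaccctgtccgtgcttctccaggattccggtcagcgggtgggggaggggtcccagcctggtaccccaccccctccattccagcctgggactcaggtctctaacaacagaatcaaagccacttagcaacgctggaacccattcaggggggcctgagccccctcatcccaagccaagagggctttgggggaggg
The Eprn window lies at chr13:73347335-73347634 on the minus strand, the Phgr1 window at chr2:118772524-118772823 on the plus strand and the Hipk4 window at chr7:27523011-27523310 on the plus strand. Of 7 named genes called higher with rosoxacin, 6 matched the promoter table, and of 12 named genes called higher with dexamethasone, 4 matched. Eprn alone of these 10 held the half-site, in 1 copy, and none held the paired core ACANNNTGT, which reads the same on both strands. Over all 32851 promoters of the table, 19% held the half-site on either strand and 6.85% held the core, so 1 in 10 is a description of these windows only.

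Across the 2749 genes, 117 differed between rosoxacin and dexamethasone on the deposited scale (limma, Benjamini-Hochberg adjusted p of at most 0.05). This is 4.26% of the genes tested. Only 15 of them were higher with rosoxacin (0.546%) and 102 were higher with dexamethasone (3.71%). That balance depended on the scale. The median log2 difference of all genes, rosoxacin minus dexamethasone, was -0.145 as deposited and 0.0513 after median-of-ratios scaling, which sets the typical locus equal between mice. On that second scale 41 genes were called (1.49%), 28 higher with rosoxacin (1.02%) and 13 higher with dexamethasone (0.473%). Both scales called 28 of the same genes, 15 higher with rosoxacin and 13 higher with dexamethasone, and no gene was called in opposite directions. Of these 28, 14 are predicted or clone-named genes, and the other 14 are described by name below. On the deposited scale the 4 mice of one drug all lay above the 4 of the other for 95 genes higher with rosoxacin (3.46%) and 266 higher with dexamethasone (9.68%). After median-of-ratios scaling that balance turned too, with 205 higher with rosoxacin (7.46%) and 127 higher with dexamethasone (4.62%). Among all 17355 loci and genes with a mean of at least 1 FPKM, nearly all of them unnamed, 44.5% were called as deposited and 32% after median-of-ratios scaling.

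**Figure D1:**
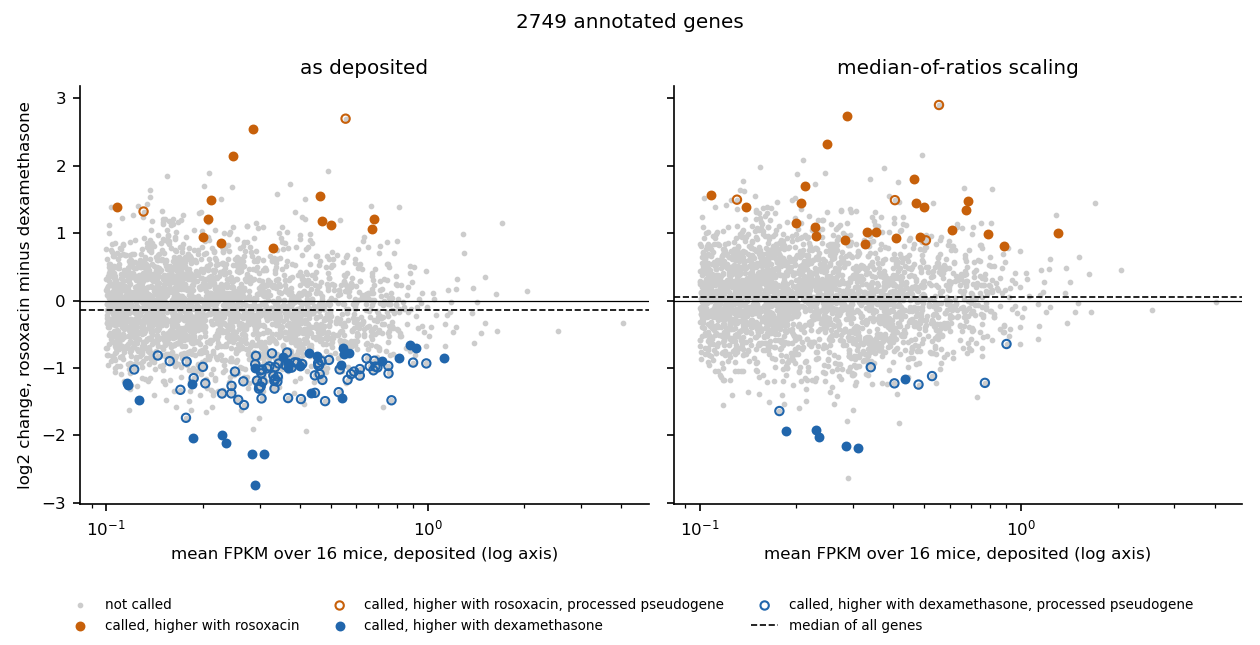
Log2 difference between rosoxacin and dexamethasone (vertical axis) against mean FPKM over 16 mice (log axis) for 2749 annotated genes, as deposited and after median-of-ratios scaling. Filled and open colored points are called genes, open ones processed pseudogenes, and the dashed line is the median of all genes, which moves from -0.145 to 0.0513 while the blue calls drop from 102 to 13.

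Values per gene rest on few sequenced fragments. FPKM multiplied by transcript length falls on steps that repeat within a library, and reading 1 step as 1 fragment implies 18270000 to 20670000 fragments per rosoxacin mouse and 17490000 to 26820000 per dexamethasone mouse. For the 1927 tested genes with a single transcript, the median gene had 3.74 fragments in an average mouse. These counts are inferred from the deposited values and were not used in a test.

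Among genes higher with dexamethasone, 6 named genes passed on both scales and in all 16 deposited-scale fits that left out 1 mouse. These were Eprn, Tmem52, Phgr1, Pcdh20, Siah1-ps2 and Rpl31-ps1. Under median-of-ratios scaling, 4 genes in all were called higher with dexamethasone without dexamethasone mouse 1, and 4 without mouse 3. Some of the 6 were thus lost in those fits. In a fit of the 8 compared mice alone Pcdh20 missed (limma adjusted p = 0.0602) and the other genes kept the call. On the deposited scale, in all 6 genes but Rpl31-ps1 every rosoxacin mouse lay also below every mouse given dust alone. After median-of-ratios scaling Siah1-ps2 overlapped dust alone too, with 0.519 FPKM in rosoxacin mouse 4 and 0.485 FPKM in WTCPM mouse 1. For Rpl31-ps1 it was the dexamethasone mice that all lay above dust alone. For the other genes the rosoxacin lungs stood apart as deposited, and they did so also in the number of their library names, as given below. Eprn (ENSMUSG00000113346.2, chr13:73344665-73347384, minus strand, GENCODE M21 on mm10) is a long noncoding RNA known from the exit of embryonic stem cells from naive pluripotency. Its level was 0.0372, 0, 0 and 0 FPKM in the rosoxacin mice and 0.490, 0.305, 0.509 and 0.420 FPKM in the dexamethasone mice. WTCPM mice had 0.410, 0.135, 0.383 and 0.450 FPKM, and control mice 0.454, 0.304, 0.288 and 0.372 FPKM. All 12 mice without rosoxacin lay above all 4 with it. The log2 difference between the drugs was -2.28 (SE 0.27, adjusted p = 0.000411, limma) and -2.15 after median-of-ratios scaling (adjusted p = 0.00157). In fragments this gene stands at 0 to 1 per rosoxacin mouse against 6.99 to 17.8 per dexamethasone mouse.

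Phgr1 (ENSMUSG00000046804.13, chr2:118772769-118778165) encodes a small proline-, histidine- and glycine-rich protein known from gut epithelium. It was listed at 0 in all 4 rosoxacin mice. The dexamethasone mice had 0.247, 0.246, 0.343 and 0.380 FPKM, the WTCPM mice 0.257, 0.415, 0.491 and 0.324 FPKM, and the control mice 0.183, 0.239, 0.452 and 0.0958 FPKM. Again no mouse of another group reached as low as the rosoxacin mice. The adjusted p was 0.00215 as deposited and 0.0031 after median-of-ratios scaling.

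Tmem52 (ENSMUSG00000023153.9, chr4:155469114-155470858), a transmembrane protein gene, was likewise listed at 0 in all rosoxacin mice. Its level was 0.473, 0.531, 0.320 and 0.135 FPKM with dexamethasone, 0.230, 0.101, 0.259 and 0.459 FPKM with dust alone, and between 0.196 and 0.401 FPKM in control mice. The adjusted p was 0.00546 as deposited and 0.00659 after median-of-ratios scaling. For Phgr1 and Tmem52 no fold is given, because a value of 0 in a table without counts can also be a failed estimate.

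Pcdh20 (ENSMUSG00000050505.7, chr14:88464743-88471396), a protocadherin of cell-cell adhesion, was detected in all 16 mice. The rosoxacin mice had 0.0454, 0.161, 0.216 and 0.189 FPKM and the dexamethasone mice 0.589, 0.436, 0.475 and 0.615 FPKM. Dexamethasone mice overlapped the WTCPM mice (0.452 to 0.719 FPKM) and the control mice (0.387 to 0.650 FPKM), and the rosoxacin mice lay below them all. The mean was 3.47 times as high with dexamethasone (0.529 ± 0.0868 FPKM, SD, n = 4) as with rosoxacin (0.153 ± 0.0749 FPKM). The log2 difference was -1.36 (SE 0.25, limma adjusted p = 0.0122) and -1.17 after median-of-ratios scaling (adjusted p = 0.0249).

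**Figure D2:**
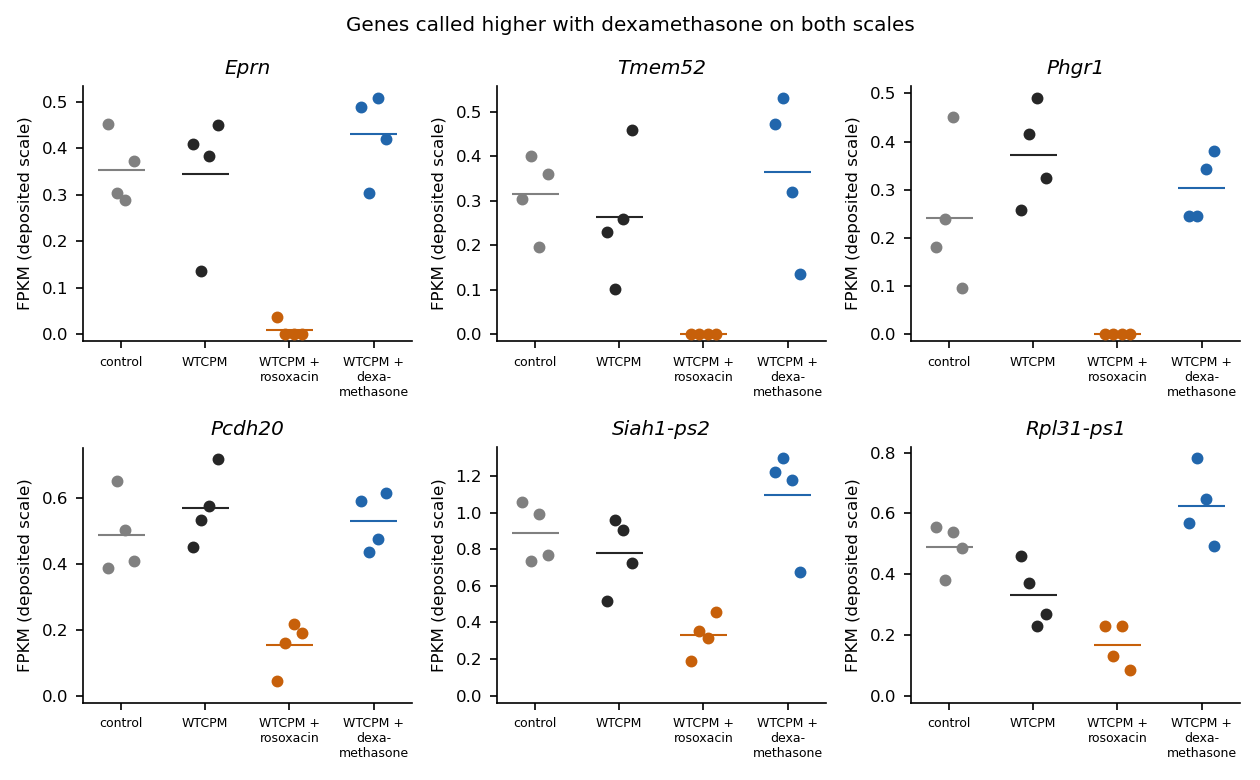
FPKM on the deposited scale (vertical axis) of 6 genes called higher with dexamethasone on both scales, in the 4 groups of 4 mice. Points are mice and bars group means. Rosoxacin mice lie at or near 0 for Eprn, Tmem52 and Phgr1, and below every dexamethasone mouse in all 6 panels.

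Siah1-ps2 and Rpl31-ps1 are processed pseudogenes, copies of spliced messages inserted elsewhere in the genome, of a ubiquitin ligase gene and of a ribosomal protein gene. Siah1-ps2 (ENSMUSG00000115491.1, chr15:38575805-38576649) stood at 0.191, 0.353, 0.312 and 0.458 FPKM with rosoxacin and at 1.22, 1.30, 1.17 and 0.676 FPKM with dexamethasone. Its WTCPM mice had 0.517 to 0.958 FPKM and its control mice 0.737 to 1.06 FPKM. The log2 difference was -1.48 (SE 0.24, limma adjusted p = 0.00724), and -1.22 after median-of-ratios scaling (adjusted p = 0.0203). Rpl31-ps1 (ENSMUSG00000066389.1, chr12:91890896-91891273) stood at 0.229, 0.129, 0.230 and 0.0834 FPKM with rosoxacin and at 0.569, 0.782, 0.648 and 0.493 FPKM with dexamethasone. Mice given dust alone had 0.230 to 0.459 FPKM of Rpl31-ps1 and control mice 0.381 to 0.556 FPKM. Its log2 difference was -1.46 (SE 0.24, limma adjusted p = 0.00724), and -1.23 after median-of-ratios scaling (adjusted p = 0.0249). Both genes are uncertain, because 36.7% of the 50-base windows of Siah1-ps2 and 13.1% of those of Rpl31-ps1 also occur in annotated transcripts of another gene, and reads were 50 bases long per the labels. None of the windows of Eprn, Phgr1, Tmem52 and Pcdh20 does.

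Other named genes were called higher with dexamethasone and lost the call more easily. Trbv16, a variable segment of the T cell receptor beta chain, was listed at 0 in all rosoxacin mice and had 0.196, 0.695, 0.246 and 0.590 FPKM with dexamethasone. It had 0, 0.126, 0.532 and 0.420 FPKM with dust alone and 0.271 to 1.22 FPKM in control mice. In fragments it stands at only 2 to 4.85 per dexamethasone mouse. It was called on both scales (limma adjusted p = 0.0299 and 0.0462). As deposited it missed the threshold without rosoxacin mouse 1, 3 or 4 or dexamethasone mouse 1, 2 or 3 (0.0579 to 0.0852). Igkv13-84, a variable segment of the immunoglobulin kappa chain, was listed at 0 in all rosoxacin mice too, against 0.535, 0.361, 0.466 and 1.085 FPKM with dexamethasone. It was called as deposited (limma adjusted p = 0.0468) and not after median-of-ratios scaling (0.0713). It also missed without WTCPM mouse 2 or 3 or any mouse of either drug (0.0534 to 0.121). Dust alone lay nearer to rosoxacin, with 3 of 4 WTCPM mice at 0 and the remaining one at 0.533 FPKM. The log2 difference from WTCPM was -0.67 with rosoxacin and 2.07 with dexamethasone, neither of them called (limma adjusted p = 0.699 and 0.861). Of the control mice, which had no dust, 2 of 4 were at 0. In fragments this segment stands at 2.18 to 7.22 per dexamethasone mouse. Of the 50-base windows of Igkv13-84, 48.3% occur in another gene.

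Lbx2, a homeobox transcription factor gene, had 0.118, 0.333, 0.267 and 0.152 FPKM with rosoxacin against 1.28, 0.821, 0.750 and 0.350 FPKM with dexamethasone. P2rx2, which encodes an ATP-gated cation channel, had 0, 0, 0.0862 and 0.0600 FPKM against 0.344, 0.186, 0.185 and 0.161 FPKM. It passed the filter on level only through the dexamethasone mice, since the other 3 groups averaged 0.0823 FPKM, so its test is not independent of its selection. Slc39a12, which encodes a zinc importer, had 0.0544, 0.174, 0 and 0 FPKM against 0.219, 0.249, 0.300 and 0.198 FPKM. These groups do not overlap for any of the 3 genes on the deposited scale. Spag11b, which encodes a defensin-like peptide known from the epididymis, was listed at 0 in all rosoxacin mice and had 0.234, 0.342, 0.0967 and 0.103 FPKM with dexamethasone. Its model overlaps Gm45826 on the same strand. With dust alone Lbx2 had 0.300 to 0.909 FPKM, P2rx2 0 to 0.160, Slc39a12 0.141 to 0.299 and Spag11b 0 to 0.256. For each of these 4 genes the dust-alone mice overlapped the rosoxacin mice. Control mice had 0.345 to 1.08, 0.0882 to 0.169, 0.107 to 0.361 and 0.0719 to 0.264 FPKM in that order. The log2 differences of Lbx2, P2rx2 and Slc39a12 were -1.45, -1.25 and -1.24. Their limma adjusted p was 0.0461, 0.0468 and 0.05 as deposited, and 0.0478 for Spag11b. After median-of-ratios scaling all 4 lost the call, with adjusted p of 0.0984, 0.0796, 0.0953 and 0.0721.

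Left-out mice moved these 4 calls as well. Lbx2 missed without control mouse 2, WTCPM mouse 3 or 4, rosoxacin mouse 1, 3 or 4 or dexamethasone mouse 1, 2 or 3 (limma adjusted p = 0.0523 to 0.151). P2rx2 missed without control mouse 2, 3 or 4, WTCPM mouse 2 or 4, any rosoxacin mouse or dexamethasone mouse 1, 2 or 3 (0.0529 to 0.153). Spag11b missed without control mouse 2 or 4, WTCPM mouse 2 or 4, any rosoxacin mouse or dexamethasone mouse 1, 2 or 3 (0.0529 to 0.151). Slc39a12 kept the call without control mouse 1 or rosoxacin mouse 2 and missed without any other mouse (0.0523 to 0.131).

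Genes higher with rosoxacin included 7 named genes that passed on both scales: Ttll8, Hipk4, Fut2, Slc1a7, Mex3a, Zfp618 and Fam163b. For each of them the change was larger after median-of-ratios scaling than as deposited. That outcome was fixed by the scaling and says nothing about these 7 genes. The scaling raised every value above 0 in the rosoxacin mice and lowered every such value in the dexamethasone mice. Any gene higher with rosoxacin therefore had to show a larger change. As deposited, none of the 15 genes called higher with rosoxacin passed in all 16 fits that left out 1 mouse. Of the 102 called higher with dexamethasone 11 did. In a fit of the 8 compared mice alone, without the spread of the other groups, Fut2 kept the call (limma adjusted p = 0.0441). Hipk4 (0.0602), Mex3a (0.0813), Zfp618 (0.0813), Ttll8 (0.0826), Fam163b (0.093) and Slc1a7 (0.102) missed it.

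Hipk4 (ENSMUSG00000040424.15, chr7:27523267-27531175) encodes a serine/threonine kinase of the homeodomain-interacting family. Rosoxacin mice had 0.658, 0.721, 0.745 and 1.1 FPKM and dexamethasone mice 0.184, 0.376, 0.282 and 0.356 FPKM. WTCPM mice, from 0.281 to 0.515 FPKM, and control mice, from 0.204 to 0.476 FPKM, all lay below the rosoxacin mice. The mean was 2.69 times as high with rosoxacin (0.805 ± 0.198 FPKM, SD, n = 4) as with dexamethasone (0.300 ± 0.0867 FPKM). The log2 difference was 1.18 (SE 0.25, limma adjusted p = 0.0226) and 1.45 after median-of-ratios scaling (adjusted p = 0.00659). It missed as deposited without rosoxacin mouse 3 or 4 or dexamethasone mouse 1 or 3 (0.052 to 0.081).

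Mex3a (ENSMUSG00000074480.4, chr3:88532395-88541396) encodes an RNA-binding protein known from intestinal progenitor cells. Its level was 0.313, 0.421, 0.315 and 0.372 FPKM with rosoxacin and 0.132, 0.217, 0.138 and 0.121 FPKM with dexamethasone. That corresponds to 33.3 to 46.8 fragments per rosoxacin mouse and 13.4 to 22 per dexamethasone mouse. All control and WTCPM mice (0.123 to 0.280 FPKM) lay below the rosoxacin mice. The log2 difference was 0.86 (SE 0.20, limma adjusted p = 0.032) and 1.09 after median-of-ratios scaling (adjusted p = 0.0158). As deposited it missed without any rosoxacin mouse or without dexamethasone mouse 1 or 3 (0.0514 to 0.0997). The miRNA gene Mir1905 overlaps Mex3a on the opposite strand, and whether counting used strand is not stated in the sources used here.

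Fut2 (ENSMUSG00000055978.5, chr7:45648591-45666394) encodes the fucosyltransferase that puts alpha-1,2-linked fucose on the glycans of mucosal secretions. Levels of 0.926, 1.1, 1.01 and 1.2 FPKM with rosoxacin stood against 0.352, 0.439, 0.529 and 0.520 FPKM with dexamethasone and 0.371 to 0.675 FPKM with dust alone. Control mice spread from 0.238 to 1.01 FPKM and overlapped the rosoxacin mice. The mean was 2.30 times as high with rosoxacin (1.06 ± 0.118 FPKM, SD, n = 4) as with dexamethasone (0.460 ± 0.0829 FPKM). The limma adjusted p was 0.0468 as deposited and 0.0203 after median-of-ratios scaling. As deposited the call missed without control mouse 2 or 4, WTCPM mouse 1, 2 or 3, any rosoxacin mouse or dexamethasone mouse 1, 2 or 3 (0.0502 to 0.151).

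Ttll8 (ENSMUSG00000022388.14, chr15:88890633-88954418) encodes an enzyme that adds glycine to tubulin in cilia. It had 0.367, 0.318, 0.375 and 0.446 FPKM with rosoxacin and 0, 0.214, 0 and 0.152 FPKM with dexamethasone. WTCPM mice, at 0.352, 0.231, 0.167 and 0.134 FPKM, overlapped both drugs. The log2 difference was 1.5 (SE 0.39, limma adjusted p = 0.0434) and 1.70 after median-of-ratios scaling (adjusted p = 0.0314). It missed as deposited without WTCPM mouse 2 or 3, any rosoxacin mouse or dexamethasone mouse 1 or 3 (0.0522 to 0.151). AC117700.1 overlaps Ttll8 on the same strand.

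Slc1a7 (ENSMUSG00000008932.9, chr4:107968332-108013532) encodes a glutamate transporter known from the retina. It had 0.309, 0.246, 0.259 and 0.350 FPKM with rosoxacin and 0.149, 0.174, 0.0342 and 0.0816 FPKM with dexamethasone. Zfp618 (ENSMUSG00000028358.15, chr4:62965573-63139708) encodes a zinc finger protein. It had 0.422, 0.509, 0.579 and 0.384 FPKM with rosoxacin and 0.228, 0.258, 0.240 and 0.205 FPKM with dexamethasone. For neither gene did the 2 drugs overlap, and the WTCPM mice of both genes lay below every rosoxacin mouse. The log2 difference was 0.94 for Slc1a7 (limma adjusted p = 0.0386) and 0.78 for Zfp618 (0.0417), and after median-of-ratios scaling 1.16 (0.0249) and 1.02 (0.0158). As deposited, Slc1a7 missed without any rosoxacin mouse or without dexamethasone mouse 1, 3 or 4 (0.0502 to 0.101). Zfp618 missed without control mouse 2, WTCPM mouse 2, 3 or 4 or any mouse of either drug (0.0512 to 0.114).

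Fam163b had 0.635 to 1.84 FPKM with rosoxacin and 0.375, 0.323, 0.328 and 0.817 FPKM with dexamethasone. The groups overlap on the deposited scale, since the highest dexamethasone mouse lies above the lowest rosoxacin mouse. It was called on both scales (limma adjusted p = 0.0492 and 0.0249), and missed as deposited without control mouse 2, 3 or 4, WTCPM mouse 1, 2 or 3, rosoxacin mouse 2, 3 or 4 or dexamethasone mouse 1, 2 or 3 (0.0551 to 0.151). Ucn2 encodes urocortin 2, a peptide of the corticotropin-releasing factor family. It had 0.376, 0.176, 0.278 and 0.379 FPKM with rosoxacin, 0.0338, 0.0987, 0.0807 and 0.0863 FPKM with dexamethasone and 0.0201 to 0.133 FPKM with dust alone. The rosoxacin mice lay above all 12 others except 1 control mouse at 0.180 FPKM. Ucn2 was not called as deposited (log2 difference 1.18, limma adjusted p = 0.0532) and was called after median-of-ratios scaling (1.39, 0.048). It passed the filter on level only through the rosoxacin mice, the other 3 groups averaging 0.0849 FPKM, so that call supports nothing by itself. Among all genes tested 302 passed through their highest group alone, and these include 2 of the 15 called higher with rosoxacin and 2 of the 102 called higher with dexamethasone through the group where they were high.

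**Figure D3:**
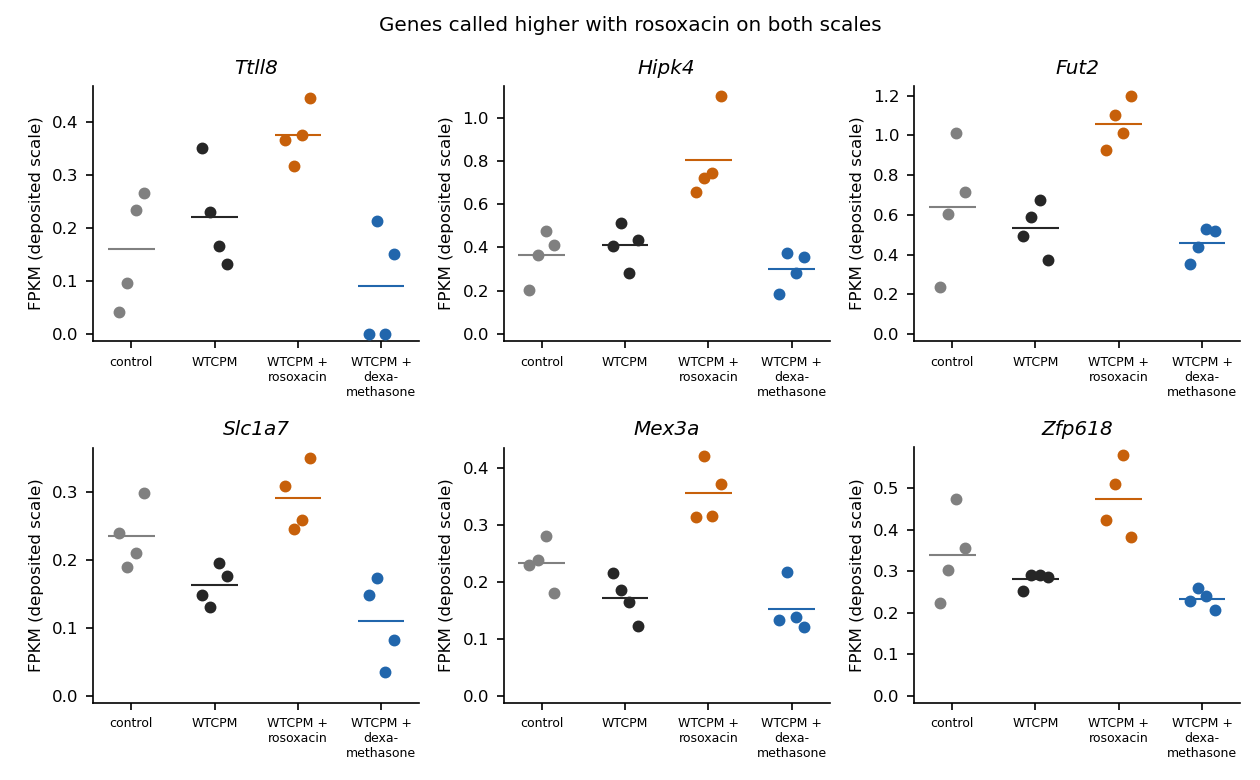
FPKM on the deposited scale (vertical axis) of 6 genes called higher with rosoxacin on both scales, in the 4 groups of 4 mice. Points are mice and bars group means. In each panel the 4 rosoxacin mice lie above the 4 dexamethasone mice, and for Hipk4 and Mex3a above the 12 mice of all other groups.

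Median-of-ratios scaling alone called 13 more genes, of which 8 are named. Besides Ucn2 these are Apold1, Ripor3, Adgrg5, Ppef2, Pacsin1, A3galt2 and Sertad4, all higher with rosoxacin. Apold1, an early response gene of endothelium, had 1.58, 1.35, 1.07 and 1.17 FPKM with rosoxacin, 0.961, 0.767, 0.851 and 0.912 FPKM with dexamethasone and 0.438 to 0.783 FPKM with dust alone. Its log2 difference was 0.51 as deposited (limma adjusted p = 0.122) and 0.81 after scaling (0.0462). Adgrg5, an adhesion G protein-coupled receptor, had 0.613 to 0.825 FPKM with rosoxacin and 0.394 to 0.512 FPKM with dexamethasone. Its adjusted p was 0.0613 as deposited and 0.0249 after scaling. Ripor3, Adgrg5, Ppef2, Pacsin1, A3galt2 and Sertad4 were outside the naming rule and are named after their values were seen.

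Called as deposited alone and higher with dexamethasone were 4 further members of function lists. Kbtbd13, a kelch protein known from skeletal muscle, had 0.151, 0.138, 0.174 and 0.219 FPKM with rosoxacin and 0.503, 0.414, 0.599 and 0.259 FPKM with dexamethasone. Its limma adjusted p was 0.032 as deposited and 0.0959 after median-of-ratios scaling. Asprv1, an aspartic protease of skin that neutrophils can also express, had 0.315, 0.185, 0.473 and 0.320 FPKM with rosoxacin and 0.735, 0.741, 0.637 and 0.462 FPKM with dexamethasone. For Asprv1 the drugs overlap, and rosoxacin mice overlapped the WTCPM mice (0.241 to 0.325 FPKM) while all dexamethasone mice lay above them. Its adjusted p was 0.0478 and 0.172. Slc25a34, a mitochondrial carrier, had 0.338 to 0.533 FPKM with rosoxacin and 0.636 to 0.876 FPKM with dexamethasone, with adjusted p of 0.0342 and 0.165. Chst5, a sulfotransferase of glycan chains, had 0.266 to 0.506 FPKM against 0.600 to 0.790 FPKM, with adjusted p of 0.0498 and 0.22. Asprv1 and Chst5 each kept the deposited call in 2 of the 16 fits that left out 1 mouse, and Kbtbd13 and Slc25a34 in 10.

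Left out in turn, the mice that ended these 4 calls were, for Kbtbd13, rosoxacin mouse 1, 2 or 3 and dexamethasone mouse 1, 2 or 3 (limma adjusted p = 0.0583 to 0.103). For Slc25a34 they were rosoxacin mouse 2, 3 or 4 and dexamethasone mouse 1, 2 or 3 (0.0583 to 0.0997). Asprv1 kept its call without control mouse 1 or dexamethasone mouse 4 and missed without any other (0.052 to 0.151). Chst5 kept its call without control mouse 1 or 4 and missed without any other (0.0543 to 0.151). Spin2c, Tmem171 and Cdnf were also called higher with dexamethasone as deposited alone, with adjusted p of 0.0368, 0.0487 and 0.0449, and were named after their values were seen. Their 4 dexamethasone mice lay above their 4 rosoxacin mice. Spin2c missed without rosoxacin mouse 1, 3 or 4 or dexamethasone mouse 1 or 2 (0.0594 to 0.0995). Tmem171 missed without control mouse 2 or 4, WTCPM mouse 2, 3 or 4, rosoxacin mouse 1, 3 or 4 or dexamethasone mouse 1, 2 or 3 (0.0543 to 0.139). Cdnf missed without control mouse 4, WTCPM mouse 2, 3 or 4, rosoxacin mouse 1, 3 or 4 or dexamethasone mouse 1, 2 or 3 (0.0502 to 0.151).

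Genes of inflammation, on which glucocorticoids are known to act, gave no call on either scale. For the list of 45 genes known to be induced by glucocorticoids, no member has an identifier of its own in the table, so the drug's best known targets are not analysed here. Of 38 cytokine genes 4 were tested and of 35 chemokine genes 5, and none was called in either direction. Over all genes 4.26% were called as deposited and 1.49% after median-of-ratios scaling. Beside these shares, 0 calls in lists this small is no result about inflammation. Cxcl1, a neutrophil-attracting chemokine, had a mean of 0.303 FPKM with rosoxacin and 0.382 with dexamethasone (log2 difference -0.25, limma adjusted p = 0.699). Cxcl2, of the same kind, had means of 0.404 and 0.316 FPKM (0.24, adjusted p = 0.73). Osm, a cytokine of the interleukin-6 family, had 0.284 and 0.356 FPKM (-0.26, adjusted p = 0.595). The list medians were -0.00385 for cytokines and -0.253 for chemokines, beside -0.145 for all genes.

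Receptors of these signals gave no call either, to be read beside the same low shares of all genes. All 7 tested chemoattractant receptors missed the threshold, with a median of -0.334. Among the 4 tested pattern receptors, Tlr9, a sensor of unmethylated DNA, had means of 0.941 FPKM with rosoxacin and 0.622 with dexamethasone, and came nearest (limma adjusted p = 0.125 as deposited and 0.0505 after median-of-ratios scaling). Of 5 tested interleukin receptors and 7 tested members of the tumor necrosis factor families, 0 were called on either scale. At p under 0.05 without adjustment, the chemokine, cytokine, interleukin receptor and tumor necrosis factor lists held 0 genes as deposited, and the pattern receptors held 2 of 4. Over all 2749 genes 568 were under that value (20.7%).

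Markers of cell types were mostly without a call, as were all genes, of which 4.26% were called as deposited and 1.49% after median-of-ratios scaling. Asprv1 was the 1 neutrophil marker of 5 tested that passed, and the 5 had a median log2 difference of -0.384. The neutrophil receptor genes Cxcr1 and Cxcr2 had log2 differences of -0.33 and -0.38 and adjusted p of 0.583 and 0.504. Gata1, a transcription factor of eosinophils, mast cells and erythroid cells, had means of 0.0806 FPKM with rosoxacin and 0.284 with dexamethasone and did not pass (log2 difference -1.19, adjusted p = 0.0653). For T cell and innate lymphoid markers 7 were tested and 0 called (median 0.159), and for NK cell and cytotoxic markers 4 and 0 (median -0.564). None of the macrophage, B cell and plasma cell or alveolar epithelial markers was tested. Itln1, an intelectin counted as a mesothelial and mucosal gene, had a mean of 0.411 FPKM with rosoxacin and 0.108 with dexamethasone and did not pass (1.43, adjusted p = 0.0721). It was tested only because of its level with rosoxacin, as the other 3 groups averaged 0.0408 FPKM.

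Antigen receptor segments stand for lymphocytes, each carrying few of many segments. Of the 78 tested segments 2.56% were called higher with dexamethasone as deposited and 1.28% after median-of-ratios scaling. The shares of all genes were 3.71% and 0.473%. Of 52 tested immunoglobulin variable segments, 1 was called higher with dexamethasone as deposited and 0 after median-of-ratios scaling. Of 17 tested T cell receptor variable segments, 1 was called higher with dexamethasone on both scales. Their median log2 differences were -0.431 and -0.676 as deposited and -0.329 and -0.614 after median-of-ratios scaling, beside -0.145 and 0.0513 for all genes. Differences of single segments between mice can reflect which clones a mouse carries, a property that was not tested. Summed over the 78 tested segments, FPKM came to 5.16, 10.4, 13.4 and 11.2 with rosoxacin and 16.1, 16.5, 15.5 and 21.2 with dexamethasone, so the drugs do not overlap on the deposited scale. WTCPM mice had 10.8 to 17.5 and control mice 12.6 to 74.2, both overlapping the drug groups. After median-of-ratios scaling the sums were 6.91 to 14.7 with rosoxacin and 14.2 to 20.1 with dexamethasone, which overlap.

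Calls in gene families were few, to be read beside 0.546% of all genes called higher with rosoxacin and 3.71% called higher with dexamethasone as deposited. Of 24 solute carriers, Slc1a7 was called higher with rosoxacin, and Slc39a12 and Slc25a34 higher with dexamethasone. Among 33 ion channel subunits 1 was called, P2rx2, higher with dexamethasone. Of 10 glycosyltransferases and sulfotransferases, Fut2 was higher with rosoxacin and Chst5 with dexamethasone, and of 7 club, goblet and mucosal genes Fut2 was higher with rosoxacin and Phgr1 with dexamethasone. Zfp618 was called higher with rosoxacin among 13 zinc finger genes, and Pcdh20 higher with dexamethasone among 3 protocadherins and cadherins. Of 32 olfactory and vomeronasal receptors, 25 G protein-coupled receptors outside the orphan and adhesion classes, and 20 transcription factors outside the zinc finger families, 0 were called on either scale.

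Gene classes differed in how often they were called. Processed pseudogenes are 963 of the 2749 genes tested (35.03%) and 74 of the 102 genes called higher with dexamethasone on the deposited scale. That is 7.684% of these pseudogenes, beside 1.839% of the 870 protein-coding genes, 16 of which were called in that direction. Their median log2 difference was -0.353, against -0.0534 for protein-coding genes. After median-of-ratios scaling 7 processed pseudogenes and 3 protein-coding genes were called higher with dexamethasone, and 4 and 15 higher with rosoxacin, with medians of -0.154 and 0.142. Called higher with dexamethasone on that scale were 0.727% of the processed pseudogenes and 0.345% of the protein-coding genes, and called higher with rosoxacin 0.415% and 1.72%. On both scales the processed pseudogenes thus had the lower median and the larger share called higher with dexamethasone, a difference between classes that was not tested. Of the 74, 11 carry the name of a parent gene, 5 of them a ribosomal protein gene, and their log2 differences ran from -1.48 to -0.815. Siah1-ps2 and Rpl31-ps1 were called on both scales, and the other 9, Rpl31-ps20, Ywhaq-ps2, Rps19-ps10, Cbx3-ps2, Cbx3-ps5, Pafah1b1-ps1, Rpl30-ps5, Rpl17-ps7 and Amd-ps1, as deposited alone. These 9 were named after their values were seen.

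Summed over all tested processed pseudogenes, FPKM came to 197, 234, 230 and 228 in the rosoxacin mice and 325, 337, 286 and 272 in the dexamethasone mice. WTCPM mice had 267 to 304 and control mice 266 to 319, so the rosoxacin mice lay below all 12 others. After median-of-ratios scaling the rosoxacin mice had 246 to 264 and the dexamethasone mice 258 to 304, which overlap. Over the tested protein-coding genes, the sums were 239 to 262 with rosoxacin and 252 to 283 with dexamethasone as deposited, which overlap. After median-of-ratios scaling they were 275 to 321 with rosoxacin and 232 to 255 with dexamethasone, which do not overlap, and all rosoxacin mice lay above the WTCPM mice (252 to 262) and the control mice (238 to 263). Long noncoding RNA sums also overlapped as deposited, at 97.4 to 136.3 with rosoxacin and 104.8 to 136.5 with dexamethasone. After scaling they did not, at 130.6 to 150.2 and 96.4 to 129.5. Small RNA genes were higher in every rosoxacin mouse than in any dexamethasone mouse on both scales, with sums of 30.9 to 40.5 against 23.1 to 29.1 as deposited and 36.7 to 45.9 against 21.2 to 27.7 after scaling.

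Processed pseudogenes differ from protein-coding genes in these files by 2 other properties. Of the 956 with transcripts of at least 50 bases, the median shared 13.1% of its 50-base windows with a transcript of another gene, against 0% for protein-coding genes. The 74 called higher with dexamethasone had a median of 24.6%. Low values that fall on whole or 0.5 fragment steps, within 0.02 of a step, made up 23.5% of low processed pseudogene values and 40.4% of low protein-coding values in the median library. Whether shared reads account for the difference between the drugs was not tested.

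**Figure D4:**
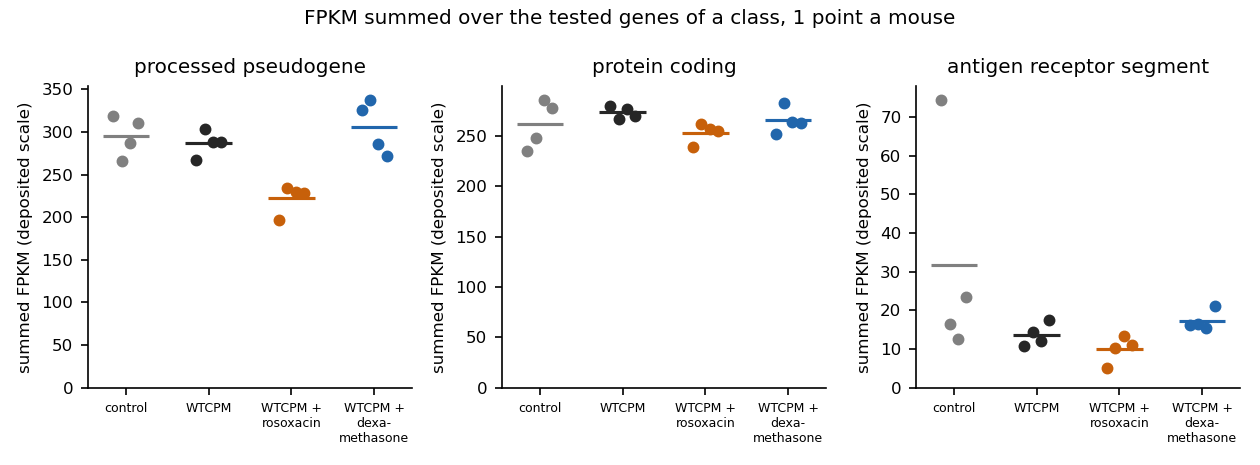
FPKM on the deposited scale summed over the tested genes of 3 classes (vertical axis, from 0) in the 4 groups, 1 point a mouse with a bar at the mean. For processed pseudogenes the 4 rosoxacin mice, from 197 to 234, lie below the other 12 mice, while for protein-coding genes the groups overlap, both as deposited. After median-of-ratios scaling this turns, and of these 3 classes only the protein-coding sums do not overlap between the drugs.

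Against dust alone, the drugs can be set side by side, with the same 4 WTCPM mice serving both comparisons. Rosoxacin and the number after S in the library names cannot be told apart here either, as given below. As deposited 15 genes were called with rosoxacin against WTCPM by limma (0.546%) and 0 with dexamethasone (0%), and 431 and 148 had an unadjusted p under 0.05. The median log2 difference of all genes from WTCPM was -0.159 with rosoxacin and 0.00432 with dexamethasone. After median-of-ratios scaling 16 (0.582%) and 0 (0%) genes were called by limma, 365 and 138 had an unadjusted p under 0.05, and the medians were 0.022 and -0.0168. On the deposited scale Eprn had a log2 difference from WTCPM of -1.97 with rosoxacin (adjusted p = 0.00152) and 0.31 with dexamethasone (0.951). Phgr1 had -2.21 (0.00113) and -0.21 (0.961). Tmem52 had -1.76 (0.0176) and 0.36 (0.951), and Pcdh20 -1.45 (0.0148) and -0.09 (0.984). Kbtbd13 had -1.19 (0.0184) and -0.22 (0.951), and lost the call with rosoxacin after scaling (-0.99, 0.058). Apold1 was higher with rosoxacin than with dust alone, by 1.00 (0.0176), and had 0.49 with dexamethasone (0.866). Asprv1 was placed differently, at 0.14 with rosoxacin (0.804) and 0.98 with dexamethasone (0.391), neither of them called. Hipk4, Fut2, Mex3a and Zfp618 had 0.82, 0.89, 0.75 and 0.58 with rosoxacin and -0.36, -0.16, -0.11 and -0.19 with dexamethasone, and none of these 8 differences from WTCPM was called as deposited. After median-of-ratios scaling Hipk4 (1.07, limma adjusted p = 0.048) and Mex3a (0.96, 0.0353) were called higher with rosoxacin than with dust alone, while Fut2 (1.15, 0.0564) and Zfp618 (0.81, 0.0564) were not.

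Whole libraries differed between the drugs in ways that touch each gene value. The sum of FPKM was 924277 to 1329954 in rosoxacin mice and 763725 to 861652 in dexamethasone mice. The 10 most abundant loci held 60.05% to 68.61% of FPKM with rosoxacin and 56.17% to 60.15% with dexamethasone. Annotated genes held 0.0603% to 0.103% against 0.1105% to 0.143%. An exact two-sided permutation test of 4 against 4 mice cannot go below p = 0.0286. The exact permutation p was 0.0286, 0.0571 and 0.0286 for the 3 quantities, and 0.0571, 0.0762 and 0.0571 after adjustment over the 4 quantities tested. Annotated genes above 0.1 FPKM numbered 2411 to 2750 with rosoxacin and 2567 to 2953 with dexamethasone (exact permutation p = 0.286). The part of these values in the gene differences was not tested beyond the rescaling.

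The number that follows S in the library names and the drug cannot be told apart. It is 1 to 4 for the rosoxacin mice and 9, 18, 19 and 22 for the dexamethasone mice. WTCPM mice have 5, 10, 12 and 17 and control mice 7, 15, 21 and 23. The number thus sets the rosoxacin mice apart from these groups as well. Where rosoxacin mice stood apart from WTCPM or control mice, drug and number cannot be told apart either. What the number stands for is not stated in the sources used here. With that number as a covariate 0 of the 2749 genes were called by limma and 317 had an unadjusted p under 0.05. Eprn kept a log2 difference of -2.28 in that fit (adjusted p = 0.108) and Phgr1 one of -1.72 (0.152). Tmem52, Pcdh20 and Rpl31-ps1 had -1.72 (0.197), -1.26 (0.197) and -1.53 (0.149), and Siah1-ps2 shrank from -1.48 to -0.93 (0.318). Hipk4 had 0.63 (0.466), Fut2 0.63 (0.574) and Mex3a 0.94 (0.277). As a share of the first value, the largest losses among the called genes given with their own values above were in Ttll8, from 1.5 to 0.34 (0.808), Lbx2, from -1.45 to -0.34 (0.809), and Fam163b, from 1.21 to 0.50 (0.708). Kbtbd13 (-0.44), Chst5 (-0.47), Igkv13-84 (-1.64) and Cdnf (-0.53) also moved by over 1.5 times. Nothing in the labels says that replicates were handled apart beyond being separate mice, so p-values measure the spread between these mice.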

How the data were processed

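Lung RNA of 16 mice in 4 groups of 4 was sequenced on 2 lanes each, giving 32 libraries. The authors deposited FPKM per transcript for 186512 transcripts. StringTie 2.1.5, HISAT2 2.2.1, HISAT, FastQC, R 4.0.4 and SAMtools 1.12 are named per the submitters' processing notes, with mm10 as the build. Their order, their settings and the read counts are not stated there. Lanes were averaged per mouse and transcripts summed per gene identifier. Symbols and coordinates came from GENCODE M21, which gave 25424 of 26305 annotated genes a symbol.

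Genes with a mean of at least 0.1 FPKM were tested with limma 3.58.1 in R 4.3.3 (eBayes with trend) on log2(FPKM + 0.1), so fold changes of low genes are understated. The 4 groups shared 1 fit, and p-values were adjusted by the Benjamini-Hochberg method over all 2749 genes, with a threshold of 0.05. Median-of-ratios factors came from 17233 features of at least 1 FPKM and above 0 in all mice. Loci were tested on log2(FPKM + 1). The procedure was tested on simulated data.

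Named genes are the 12 largest changes per direction among called genes whose groups do not overlap. A direction with fewer was filled to 8 by smallest p. Up to 4 called members of each of 52 function lists, or failing those the 2 most abundant, were added, and predicted genes were counted only. The pattern that made the list of ciliary genes also took in Spag11b, which is not a ciliary gene. The members and lists were chosen with earlier results of these data known. Alternatives covered scaling, pseudocount, filter, lanes, groups in the fit, covariates, a replicate block and each mouse left out. Shared 50-base windows were counted over both strands of annotated transcripts, not over the genome. Python 3.11.15 with matplotlib 3.10.9 drew the figures.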

Additional observations from a re-analysis of the deposited data

Results flagged for a closer look

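In groups of 4 mice, a mouse was picked out when its gap to the nearest other mouse, as a share of the range of its group, passed Dixon's critical value for 4 values. Among 96 groups looked at (20 named genes and 4 sample-level values in 4 groups) 8 mice were picked out, and chance alone picks out about 1 in 20 groups.

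Among genes higher with rosoxacin, Fam163b had its highest dexamethasone mouse at 0.817 FPKM beside 0.323 to 0.375 FPKM in the other 3, and its lowest control mouse at 0.193 FPKM beside 0.423 to 0.461 FPKM. Zfp618 had its lowest WTCPM mouse at 0.253 FPKM beside 0.285 to 0.291 FPKM. Among genes higher with dexamethasone, P2rx2 had its highest dexamethasone mouse at 0.344 FPKM beside 0.161 to 0.186 FPKM. Eprn had 1 rosoxacin mouse at 0.0372 FPKM while the other 3 were at 0. Igkv13-84 had 1 WTCPM mouse at 0.533 FPKM while the other 3 were at 0. Trbv16 had its highest control mouse at 1.22 FPKM beside 0.271 to 0.392 FPKM, and Lbx2 its highest control mouse at 1.08 FPKM beside 0.345 to 0.468 FPKM.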

How the results depend on the processing

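The 117 calls among annotated genes became 310 in TPM, 41 after median-of-ratios scaling and 30 with quantile normalisation. A pseudocount of 1 gave 57, a mean of at least 0.5 FPKM 51, no filter 15, and no trend 68. Single lanes gave 5 and 4, and a fit with adjustment over all loci and genes 259. The 2 compared groups alone gave 12, of which 3 were higher with rosoxacin and 9 with dexamethasone. With the library number as covariate 0 were called, also under median-of-ratios scaling, where 249 had an unadjusted p under 0.05. Leaving out the processed pseudogenes, an alternative chosen after seeing the data, gave 11, of which 2 were higher with rosoxacin and 9 with dexamethasone. Processed pseudogenes were only 2 of the 15 calls higher with rosoxacin and 74 of the 102 higher with dexamethasone. Calls of other classes were therefore lost in that fit as well, in both directions. A pseudocount of 0.01 gave 109 and a mean over the 8 mice compared 114. The cause of these shifts was not tested.

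Leaving out 1 mouse in turn gave between 14 (without dexamethasone mouse 1) and 162 (without dexamethasone mouse 4) calls. The count was under 78 also without WTCPM mouse 2 (72), rosoxacin mouse 1 (35), 3 (19) or 4 (40), or dexamethasone mouse 2 (25) or 3 (22). Under median-of-ratios scaling, in fits added after seeing the data, it was 31, 45, 18 and 14 without rosoxacin mouse 1, 2, 3 and 4, and 10, 20, 6 and 51 without dexamethasone mouse 1, 2, 3 and 4.

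Same-numbered mice of the 2 drugs deviated together weakly, with correlations of 0.127, -0.051, 0.0261 and 0.0425, so the numbers were not taken to pair them. A fit with a replicate block called 103 genes, 84 of them among the 117.

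Of the 7722 calls among loci and genes, 3396 were left with the library number as covariate, and leaving out 1 mouse gave 6331 to 8979. The difference in summed FPKM of 262871 ran from 174945 without rosoxacin mouse 1 to 310170 without rosoxacin mouse 2. Without dexamethasone mouse 1, 2, 3 or 4 it was 282321, 249678, 266214 and 253271 and the exact permutation p rose to 0.0571. The difference of 5.198 percentage points in the 10 most abundant loci ran from 3.517 without rosoxacin mouse 1 to 6.369 without rosoxacin mouse 4, and was 5.664 in lane 1 alone. The exact permutation p fell to 0.0286 in the latter 2 settings. That of -0.03805 in annotated genes ran from -0.04325 without dexamethasone mouse 1 to -0.0288 without rosoxacin mouse 1, where, as without dexamethasone mouse 2 (-0.03232), the exact permutation p was 0.0571.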
